A study of Homo sapiens with 17 samples.

Results

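The genes described here are 10 regulators of cell cycle transcription: the E2F factors E2F1, E2F2, E2F3, E2F4, E2F7 and E2F8, the MYB family factors MYBL1 and MYBL2, the forkhead factor FOXM1, and the retinoblastoma protein gene RB1. They were chosen by symbol, with earlier results of these data known. All 10 of the 10 were found among the 23230 genes of the deposited count tables, and all 10 were among the 15550 genes with enough reads to be tested. The study used LNCaP, an androgen-dependent human prostate cancer line, and LNCaP-abl (abl), its derivative that proliferates in the absence of androgen. Per the labels, LNCaP cells at passages 32 to 34 were grown with 10% serum and abl cells at passages 62 to 64 with 10% charcoal-stripped serum, and both lines were split every 2 days. Each line was given siControl, a non-targeting control, or siCREB1 or siFOXA1, which target the transcription factors CREB1 and FOXA1. The dose was 40 nM for 3 days in 5% charcoal-stripped serum in all 6 groups, so LNCaP was also low in steroid hormone during the knockdown. Each group had 2 libraries.

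E2F factors bind promoters of genes for DNA synthesis as cells leave G1. E2F1, E2F2 and E2F3 are activators that RB1 holds back until cyclin-dependent kinases phosphorylate it, whereas E2F4 acts mostly as a repressor with the RB1-related pocket proteins, and the atypical factors E2F7 and E2F8 repress E2F targets later in S phase. MYBL2 then joins the MuvB core complex and, with FOXM1, switches on the genes of G2 and mitosis. In prostate cancer, loss of RB1 function and high activity of E2F targets are known features of advanced disease.

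Reads assigned to genes numbered 9092597 to 37314039 per library, and both of these extremes were abl siControl libraries. CREB1 kept 41.2% of its siControl level under siCREB1 in LNCaP and 56.9% in abl, and FOXA1 kept 28.5% and 40% under siFOXA1. CREB1 also fell by 0.44 on the log2 scale under siFOXA1 in both lines. All 8 prostate luminal markers had reads in every library, with a summed level of 2126 to 3868 CPM (counts scaled to library size). The 12 blood and myeloid markers summed to 11.9 CPM in the first LNCaP siControl library and 12.9 in the first abl siControl library, against 2.74 to 7.58 in the other libraries. The same libraries held 76 and 87 reads of CSF3R, a granulocyte receptor, and nearly all reads of S100A8 and SRGN. Other markers were mixed. S100A9 had 62 and 88 reads in the first LNCaP and abl siControl libraries against 4 and 1 in the second. It also had 59 to 96 in the siFOXA1 libraries. PTPRC had 9 and 64 reads in the first siControl libraries against 0 and 8 in the second, and most in abl siCREB1 (86 and 75). LYZ had reads in every library, and CD14, CD74, FCGR3B, HBB, HBA1 and HBA2 had few or none in any. A fit without the first siControl library of both lines was run. It drops whole libraries, so the part of the blood marker reads alone was not tested. Calls of single members that end or begin without 1 library are named with the member. The 7 fibroblast markers summed to 59.7 to 99 CPM in LNCaP and 11.2 to 22.1 in abl. The labels do not say that the 2 libraries of a group came from separate cultures, so p-values measure only the spread between these libraries, which may be technical. All values are from bulk cells, in which fewer cycling cells and less RNA per cycling cell cannot be told apart.

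Several E2F and MYB genes are known to be E2F targets themselves, so their promoters are shown with the E2F letters they hold. RefSeq (GRCh38.p14) promoters were used for 6 of the 10 genes. The 120 bases before the start of each are shown, 5′ to 3′. E2F8 and FOXM1 had no entry, the RB1 entry did not lie at the gene start, and MYBL1 was left out by choice. Capitals mark 3 E2F forms on either strand: the form TTGGCG, then its close variant TTCGCG, and last the longer form TTCCCGC. In the order shown, the stretches lie at chr20:33686386-33686505 (minus strand), chr1:23531234-23531353 (minus strand), chr6:20401759-20401878 (plus strand), chr16:67192035-67192154 (plus strand), chr12:77065570-77065689 (minus strand) and chr20:43666994-43667113 (plus strand).
E2F1: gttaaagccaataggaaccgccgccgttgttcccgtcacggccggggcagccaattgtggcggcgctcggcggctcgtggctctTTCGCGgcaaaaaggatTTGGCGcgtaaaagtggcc
E2F2: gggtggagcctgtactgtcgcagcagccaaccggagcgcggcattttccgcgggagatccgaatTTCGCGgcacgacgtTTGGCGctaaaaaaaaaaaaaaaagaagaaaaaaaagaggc
E2F3: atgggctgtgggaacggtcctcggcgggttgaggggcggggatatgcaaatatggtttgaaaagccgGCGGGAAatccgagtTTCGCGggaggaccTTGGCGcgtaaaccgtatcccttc
E2F4: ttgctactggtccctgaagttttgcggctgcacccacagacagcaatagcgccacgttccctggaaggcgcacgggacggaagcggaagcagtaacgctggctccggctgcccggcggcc
E2F7: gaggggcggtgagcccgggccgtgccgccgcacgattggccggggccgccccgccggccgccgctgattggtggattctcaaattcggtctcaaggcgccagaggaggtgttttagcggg
MYBL2: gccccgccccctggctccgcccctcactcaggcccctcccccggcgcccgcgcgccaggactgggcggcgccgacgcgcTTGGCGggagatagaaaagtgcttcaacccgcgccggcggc
The activators E2F1, E2F2 and E2F3 each held TTGGCG with TTCGCG a few bases upstream of it, all within 60 bases of the start. MYBL2 held 1 TTGGCG at 41 to 36 bases before the start, E2F7 held 1 at 132 to 127 bases, upstream of the stretch shown, and E2F4 held none. Over the 250 bases searched, 5 of these 6 promoters held at least 1 of the E2F forms, against 16.3% of 35116 RefSeq promoters. Those 35116 were not limited to entries at the gene start. The 6 were picked from the members, without MYBL1, so no enrichment is read from these shares. TTTGAA, the core of the cell cycle homology region that MuvB binds, stood in 1 of the 6 (E2F3), against 13.3% of all promoters. The CREB1 half-site TGACG stood in 2 of the 6 (E2F1 and E2F4), against 21.2%, and the forkhead form TGTTTNC in none of the 6, against 15.5%. All motifs were searched on both strands and were chosen with these promoters seen, and a match describes letters, not binding.

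Both knockdowns acted on several of these regulators differently in the 2 lines. In LNCaP, siCREB1 lowered 9 of the 10 genes (19.8% of all tested genes were called lower), taking MYBL2 to 9.79% of its siControl level, and E2F4 alone rose. In abl, siCREB1 left MYBL2 at 80.7% of siControl, a change that did not pass the test, and E2F1 was higher rather than lower. siFOXA1 lowered FOXM1 and MYBL2 in both lines, and more so in abl, where E2F7 and MYBL1 also fell to 19% and 18.7% of siControl. E2F4 was the member called higher in all 4 knockdown comparisons. The siCREB1 and siFOXA1 comparisons of a line share their siControl libraries, so their values are set side by side and not as independent evidence.

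**Figure D1:**
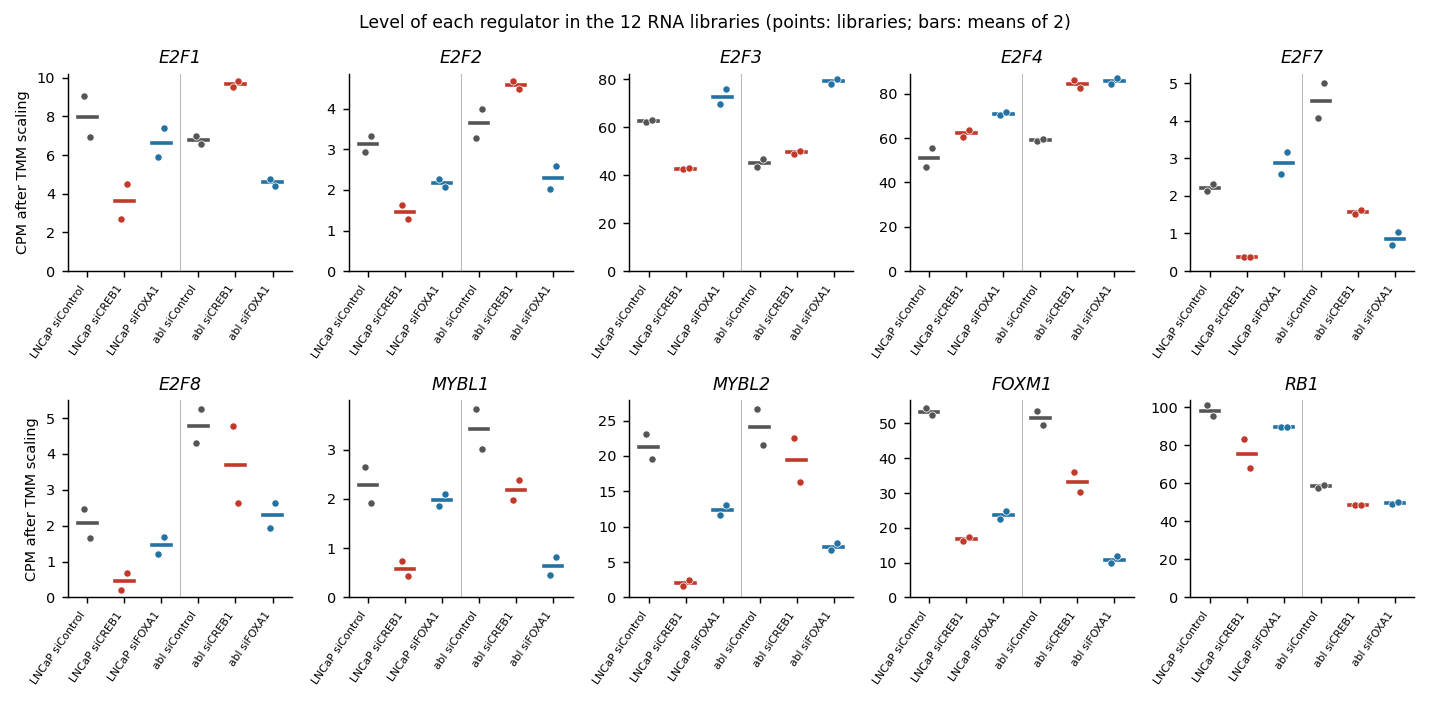
Level of each of the 10 genes in CPM (vertical axis, linear, from 0) in the 6 groups, with 1 point per library and a bar at the mean of the 2 libraries. MYBL2 sits at 1.69 and 2.48 CPM in LNCaP siCREB1 against 19.5 and 23.1 in LNCaP siControl, while abl siCREB1 stays at 16.3 and 22.6.

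Among the activators, E2F1, the classic driver of S phase entry, stood at 9.06 and 6.92 CPM in LNCaP siControl, 2.72 and 4.49 in LNCaP siCREB1, and 5.9 and 7.38 in LNCaP siFOXA1. In abl it stood at 6.97 and 6.58 in siControl, 9.51 and 9.84 in siCREB1, and 4.78 and 4.41 in siFOXA1. The siCREB1 libraries were thus below both controls in LNCaP and above both in abl, and the siFOXA1 libraries of LNCaP overlapped their controls. E2F1 fell under siCREB1 in LNCaP by 1.17 ± 0.20 on the log2 scale (SE, 2 libraries against 2, adjusted p = 0.000587, edgeR's quasi-likelihood test with Benjamini-Hochberg adjustment, as for every adjusted p here). It rose by 0.50 ± 0.19 in abl (adjusted p = 0.0435) and fell under siFOXA1 in abl by 0.58 ± 0.21 (adjusted p = 0.0316). The rise in abl passed the test narrowly. It missed when either abl siControl library, either abl siCREB1 library or the second abl siFOXA1 library was left out (adjusted p 0.0501 to 0.146), with DESeq2 size factors (0.0525), in DESeq2's Wald test (0.0819) and with a replicate block (0.0515). The fall under siFOXA1 missed without any 1 of the 4 abl siControl and siFOXA1 libraries (0.0511 to 0.216).

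E2F2, the activator closest to E2F1 in function, had 2.93 and 3.33 CPM in LNCaP siControl, 1.62 and 1.28 in LNCaP siCREB1, and 2.28 and 2.07 in LNCaP siFOXA1. The abl libraries held 3.28 and 4.01 in siControl, 4.69 and 4.5 in siCREB1, and 2.02 and 2.59 in siFOXA1. Neither knockdown group overlapped its controls in either line, although not all of these gaps passed the test. It fell by 1.09 ± 0.21 under siCREB1 in LNCaP (adjusted p = 0.00135) and by 0.60 ± 0.20 under siFOXA1 in abl (adjusted p = 0.0232). Under siFOXA1 in LNCaP the change was -0.51 ± 0.20 (adjusted p = 0.0508), and under siCREB1 in abl 0.39 ± 0.19 (adjusted p = 0.0959). The abl siFOXA1 call missed without the second abl siControl library or the first abl siFOXA1 library (adjusted p 0.0795 to 0.165), and in DESeq2's Wald test (0.0791).

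E2F3, which activates S phase genes with E2F1 and E2F2, behaved differently from both under siFOXA1. Its levels were 62.3 and 62.8 CPM in LNCaP siControl, 42.4 and 42.8 in LNCaP siCREB1, and 69.4 and 75.9 in LNCaP siFOXA1. In abl they were 43.5 and 46.6 in siControl, 48.9 and 49.9 in siCREB1, and 78 and 80.2 in siFOXA1. The siFOXA1 libraries were the highest of each line, and the siCREB1 libraries the lowest in LNCaP only. E2F3 rose under siFOXA1 by 0.82 ± 0.07 in abl (to 176% of siControl, adjusted p = 1.9e-07) and by 0.22 ± 0.06 in LNCaP (adjusted p = 0.0127). It fell under siCREB1 in LNCaP by 0.55 ± 0.07 (adjusted p = 2.72e-05), and the abl change of 0.14 ± 0.07 did not pass (adjusted p = 0.0954). The LNCaP rise missed without the second LNCaP siFOXA1 library (adjusted p = 0.0904).

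E2F4, the main E2F of resting cells, held 46.8 and 55.4 CPM in LNCaP siControl, 60.5 and 63.7 in LNCaP siCREB1, and 70.4 and 71.6 in LNCaP siFOXA1. Its abl levels were 58.6 and 59.4 in siControl, 86.2 and 82.7 in siCREB1, and 84.5 and 86.9 in siFOXA1. All 8 knockdown libraries were above both controls of their line. It rose by 0.29 ± 0.07 under siCREB1 (adjusted p = 0.00788) and 0.48 ± 0.07 under siFOXA1 (adjusted p = 0.000124) in LNCaP. The abl rises were 0.52 ± 0.08 (adjusted p = 5.88e-05) and 0.54 ± 0.08 (adjusted p = 3.12e-05). The siCREB1 call in LNCaP missed without the first LNCaP siControl library, which is one of the libraries with more blood marker reads (adjusted p = 0.0904).

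The atypical repressor E2F7 is itself an E2F target. It stood at 2.13 and 2.31 CPM in LNCaP siControl, 0.368 and 0.365 in LNCaP siCREB1, from 10 reads in each library, and 2.57 and 3.17 in LNCaP siFOXA1. In abl it stood at 4.06 and 5.01 in siControl, 1.53 and 1.62 in siCREB1, and 0.689 and 1.04 in siFOXA1. E2F7 was therefore low under siCREB1 in both lines, whereas siFOXA1 libraries were the lowest in abl and the highest in LNCaP. It fell under siCREB1 by 2.57 ± 0.30 in LNCaP (adjusted p = 2.48e-05) and 1.47 ± 0.22 in abl (adjusted p = 7.4e-05). Under siFOXA1 it fell by 2.33 ± 0.24 in abl (adjusted p = 2.14e-06), and the LNCaP change of 0.39 ± 0.21 did not pass (adjusted p = 0.152).

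E2F8, the partner of E2F7 in that repression, was measured with few reads in LNCaP. Its levels were 2.46 and 1.67 CPM in LNCaP siControl, 0.221 and 0.693 in siCREB1, and 1.22 and 1.68 in siFOXA1. In abl they were 4.31 and 5.24, then 4.78 and 2.63, then 1.93 and 2.64. Only LNCaP siCREB1 and abl siFOXA1 lay wholly below their controls. E2F8 fell by 2.21 ± 0.46 under siCREB1 in LNCaP (adjusted p = 0.00211) and by 1.01 ± 0.33 under siFOXA1 in abl (adjusted p = 0.0173). The LNCaP siCREB1 change was -1.59 without the first LNCaP siCREB1 library and -3.22 without the second. The LNCaP siFOXA1 change was -0.55 ± 0.38 (adjusted p = 0.254) and the abl siCREB1 change -0.33 ± 0.31 (adjusted p = 0.402). The abl siFOXA1 call missed without either abl siControl library or the first abl siFOXA1 library (adjusted p 0.0513 to 0.121).

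MYBL2 (B-MYB), the MYB factor of the MuvB complex, showed the largest change among the 10 genes in LNCaP under siCREB1. It stood at 23.1 and 19.5 CPM in LNCaP siControl, 1.69 and 2.48 in LNCaP siCREB1, and 11.7 and 13 in LNCaP siFOXA1. In abl it stood at 26.6 and 21.6 in siControl, 22.6 and 16.3 in siCREB1, and 6.66 and 7.65 in siFOXA1. The order of the group means in LNCaP was siControl, siFOXA1, siCREB1 with no overlap, and in abl siControl, siCREB1, siFOXA1, with the first siCREB1 library inside the range of the controls. MYBL2 fell by 3.36 ± 0.21 under siCREB1 in LNCaP (adjusted p = 1.09e-07), and the abl change was -0.34 ± 0.16 (adjusted p = 0.0895). Under siFOXA1 it fell by 0.79 ± 0.16 in LNCaP (to 58%, adjusted p = 0.00123) and 1.78 ± 0.18 in abl (to 29.7%, adjusted p = 1.39e-06). The abl siCREB1 change passed the test only when the first abl siCREB1 library was left out (-0.59, adjusted p = 0.0151) or when no filter on low counts was used (-0.33, adjusted p = 0.0481).

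MYBL1 (A-MYB), best known for its role in meiosis, held 2.64 and 1.92 CPM in LNCaP siControl, 0.736 and 0.438 in LNCaP siCREB1, and 1.85 and 2.1 in LNCaP siFOXA1. Its abl levels were 3.83 and 3.01 in siControl, 1.98 and 2.39 in siCREB1, and 0.46 and 0.821 in siFOXA1. siCREB1 gave the lowest libraries in LNCaP and siFOXA1 the lowest in abl. MYBL1 fell under siCREB1 by 1.99 ± 0.32 in LNCaP (adjusted p = 0.000307) and 0.70 ± 0.25 in abl (adjusted p = 0.029). Under siFOXA1 it fell by 2.46 ± 0.31 in abl (adjusted p = 1.2e-05), and the LNCaP change was -0.24 ± 0.26 (adjusted p = 0.476). The abl siCREB1 call missed without the first abl siControl library (-0.44, adjusted p = 0.386) or either abl siCREB1 library (adjusted p 0.0545 to 0.386 over these 3 fits), and in DESeq2's Wald test (0.131).

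FOXM1, the forkhead activator of mitotic genes, was the member that fell in all 4 comparisons. It stood at 54.4 and 52.3 CPM in LNCaP siControl, 16.1 and 17.5 in LNCaP siCREB1, and 22.6 and 24.9 in LNCaP siFOXA1. In abl it stood at 53.6 and 49.6 in siControl, 36.1 and 30.2 in siCREB1, and 9.93 and 11.8 in siFOXA1. The siControl libraries of both lines lay close together, and the knockdowns took opposite orders, siCREB1 lowest in LNCaP and siFOXA1 lowest in abl, with no overlap between the groups of a line. FOXM1 fell under siCREB1 by 1.67 ± 0.10 in LNCaP (to 31.5%, adjusted p = 1.06e-07) and 0.65 ± 0.10 in abl (to 64.3%, adjusted p = 9.98e-05). Under siFOXA1 it fell by 1.17 ± 0.10 in LNCaP (to 44.5%, adjusted p = 5.75e-07) and 2.25 ± 0.11 in abl (to 21.1%, adjusted p = 1.87e-09). These 4 calls held under every alternative tried.

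RB1, the brake on the activator E2Fs, moved little. It held 101 and 95.3 CPM in LNCaP siControl, 83.1 and 68 in LNCaP siCREB1, and 89.4 and 89.8 in LNCaP siFOXA1. In abl it held 57.6 and 59.4 in siControl, 48.6 and 48.5 in siCREB1, and 49.3 and 50.4 in siFOXA1. All 6 abl libraries lay below all 6 LNCaP libraries, and the knockdown libraries below the controls of their line. It fell by 0.38 ± 0.08 under siCREB1 in LNCaP (adjusted p = 0.00214), by 0.26 ± 0.08 under siCREB1 in abl (adjusted p = 0.0179) and by 0.23 ± 0.08 under siFOXA1 in abl (adjusted p = 0.035). The LNCaP siFOXA1 change was -0.13 ± 0.08 (adjusted p = 0.186). The LNCaP siCREB1 change was -0.22 without the second LNCaP siCREB1 library. The abl siCREB1 call missed without any 1 of the 4 libraries compared (adjusted p 0.0637 to 0.0804). The abl siFOXA1 call missed without any 1 of 8 libraries, namely the 6 of abl and the 2 of LNCaP siFOXA1 (0.0506 to 0.135).

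Set against all genes, siCREB1 in LNCaP called 9 members lower and 1 higher, where 19.8% of all tested genes were called lower and 17.8% higher. siFOXA1 in LNCaP called 2 lower (MYBL2 and FOXM1) and 2 higher (E2F3 and E2F4), where 25.5% and 24.4% of all genes were called, so the members' share was no greater than the background. In abl, siCREB1 called 4 lower (E2F7, MYBL1, FOXM1 and RB1) and 2 higher (E2F1 and E2F4) over a background of 23.7% and 27.5%. Of these 6 calls, E2F4, E2F7 and FOXM1 held under every alternative. In abl siFOXA1, 8 members were called lower and 2 higher (E2F3 and E2F4) over a background of 26.5% and 29.9%, and 6 of these 10 calls held under every alternative. The median log2 change of the 10 genes was -1.42, -0.26, -0.29 and -0.80 in these 4 comparisons, beside medians of all genes from -0.01 to 0.03.

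**Figure D2:**
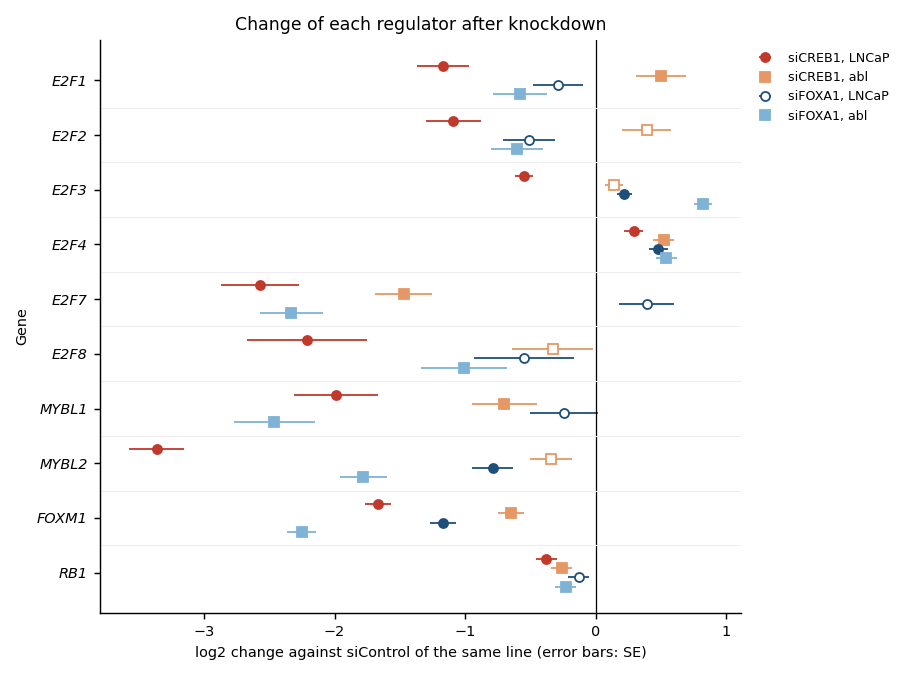
Log2 change of each gene (horizontal axis) under siCREB1 and siFOXA1 in LNCaP and abl, with bars of 1 SE and filled points for calls at an adjusted p below 0.05. Under siCREB1 MYBL2 lies at -3.36 in LNCaP and -0.34 in abl, and E2F4 lies above 0 in all 4 comparisons.

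The difference between the lines was tested directly, as the abl change minus the LNCaP change. For siCREB1, 7 members differed, all with a higher value in abl (background 14.8% higher and 10.8% lower). MYBL2 differed most, by 3.01 ± 0.27 (adjusted p = 3.93e-06). E2F1 differed by 1.67 ± 0.28 (adjusted p = 0.000708), E2F2 by 1.48 ± 0.28 (0.00179), FOXM1 by 1.02 ± 0.14 (0.000181) and E2F3 by 0.70 ± 0.09 (0.000144). The 3 activator E2Fs were thus called lower in LNCaP, and none of them was called lower in abl. E2F8 differed by 1.88 ± 0.56 (adjusted p = 0.0249) and MYBL1 by 1.28 ± 0.41 (0.0344). Each of these last calls missed in 4 of the 12 fits that leave out 1 library, E2F8 without the first siControl or siCREB1 library of either line (adjusted p 0.0833 to 0.159). The E2F8 difference was 1.27 without the first LNCaP siCREB1 library and 2.90 without the second. The E2F8 and MYBL1 calls also missed without the first siControl library of both lines, with differences of 1.33 and 1.24. MYBL1 missed without the first LNCaP siControl, second LNCaP siCREB1, second abl siControl or second abl siCREB1 library (0.0732 to 0.166), and in DESeq2's Wald test (0.102). E2F4 (0.23, adjusted p = 0.137), E2F7 (1.10 ± 0.39, 0.0531) and RB1 (0.11, 0.519) did not pass. The E2F4 difference passed only without the first LNCaP siControl library, one of the libraries with more blood marker reads (0.34, adjusted p = 0.0273), and that of E2F7 only with a replicate block (1.08, 0.0389). CREB1 itself was less reduced in abl, by 0.47 on the log2 scale (adjusted p = 0.0208), and its part in these differences was not tested.

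For siFOXA1 the line difference ran mostly the other way, with 4 members lower in abl and 1 higher (background 14.7% and 17.9%). E2F7 differed by -2.71 ± 0.33 (adjusted p = 3.07e-05), MYBL1 by -2.22 ± 0.41 (0.00102), FOXM1 by -1.08 ± 0.15 (9.85e-05) and MYBL2 by -0.99 ± 0.24 (0.00691). E2F3 differed by 0.61 ± 0.09 (adjusted p = 0.000219), since its rise was larger in abl. These 5 calls held in every fit that left out 1 library. E2F1, E2F2, E2F4, E2F8 and RB1 did not pass, with differences of -0.46 to 0.06. FOXA1 itself was less reduced in abl, by 0.49 on the log2 scale (adjusted p = 0.00584). Its abl siControl level was 71% of that in LNCaP (adjusted p = 0.000129). The part of FOXA1 in these differences was not tested.

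**Figure D3:**
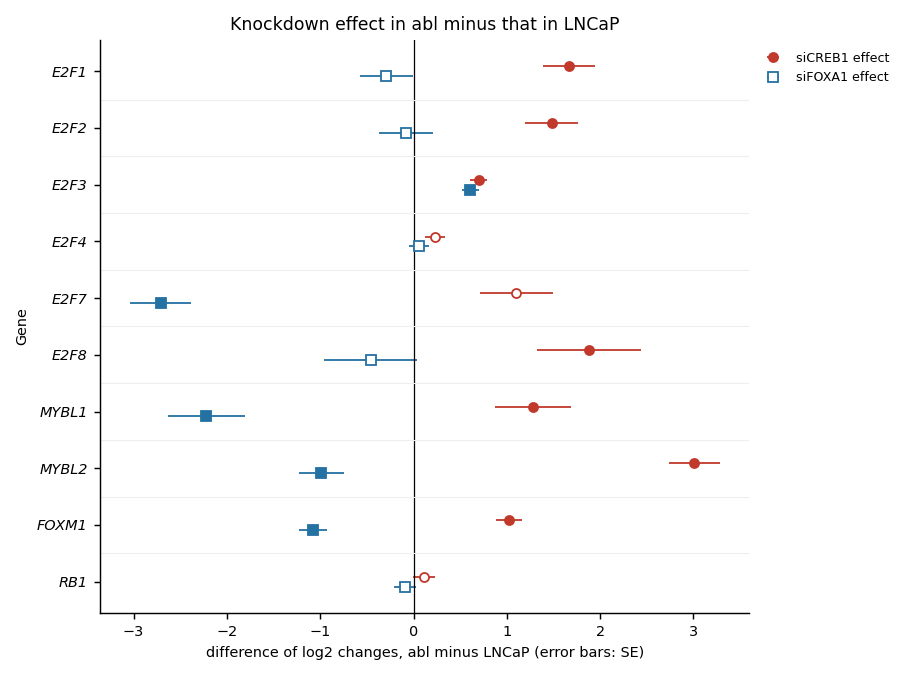
Difference between the lines in each knockdown effect (abl log2 change minus LNCaP log2 change, horizontal axis) with bars of 1 SE and filled points for calls at an adjusted p below 0.05. MYBL2 lies at 3.01 for siCREB1 and -0.99 for siFOXA1, and E2F7 at -2.71 for siFOXA1.

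Under siControl, no difference between the lines in MYBL2 or FOXM1 passed the test, while most of the G2/M genes they are known to activate were higher in abl. In abl siControl against LNCaP siControl, the change was -0.04 ± 0.10 for FOXM1 (adjusted p = 0.731) and 0.20 for MYBL2 (0.3). Of 20 such G2/M genes, 18 were called higher in abl and 0 lower (median log2 change 1.29), and 17 were called higher without the first siControl library of both lines. Of 20 G1/S genes that E2F activates, 8 were called lower and 6 higher (median -0.02), and 5 lower without those libraries. RB1 was lower in abl, at 59.6% of LNCaP (-0.75 ± 0.08, adjusted p = 2.33e-06), and so was E2F3 (-0.48, 2.45e-05). E2F7 was higher by 0.99 ± 0.21 (adjusted p = 0.000963) and E2F8 by 1.11 ± 0.33 (0.00989). E2F4 (0.21, adjusted p = 0.0258) and MYBL1 (0.61 ± 0.25, 0.0462) were also called higher, which made 2 members lower and 4 higher over a background of 33.1% and 30.5%. The E2F4 call missed without the first siControl library of LNCaP or either of abl (adjusted p 0.0652 to 0.257). The MYBL1 call missed without the second LNCaP or the first abl siControl library (0.178 to 0.425), with a replicate block (0.0509) and in DESeq2's Wald test (0.162). Without 1 library the E2F4 value ran from 0.11 to 0.33 and the MYBL1 value from 0.38 to 0.92. The lines also differ in passage and growth medium, which cannot be told apart from the line.

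Compared with siFOXA1 directly, siCREB1 gave lower values for all 10 members in LNCaP (log2 -2.96 to -0.19, background 22.5% lower and 20.6% higher). The E2F4 call (-0.19) missed without any 1 of the 10 libraries other than LNCaP siControl (adjusted p 0.0594 to 0.23). The E2F2 call missed without any 1 of the 4 LNCaP knockdown libraries or the 2 of abl siCREB1 (0.0512 to 0.248). The RB1 call missed without the second LNCaP siCREB1 or either LNCaP siFOXA1 library (0.0738 to 0.249), and the E2F8 call without the first LNCaP siCREB1 or second LNCaP siFOXA1 library (0.101 to 0.131). DESeq2's Wald test left 7 members lower, without E2F2 (0.178), E2F4 (0.123) and RB1 (0.0514), and a replicate block ended the E2F2 call (0.0528). The E2F2 and E2F4 calls also missed with DESeq2 size factors (0.0539 and 0.0621) and with no filter on low counts (0.0518 and 0.0625). With only the LNCaP libraries, E2F2 (0.0707), E2F4 (0.114) and RB1 (0.0872) missed. The E2F1 value in this LNCaP comparison was -0.57 without the first LNCaP siCREB1 library. In abl, siCREB1 gave higher values for 6 members, namely MYBL1 (1.76), FOXM1 (1.60), MYBL2 (1.44), E2F1 (1.08), E2F2 (0.99) and E2F7 (0.86), and a lower one for E2F3 (-0.68), over a background of 20% higher and 21% lower. The E2F7 call missed without either abl siCREB1 library or the first abl siFOXA1 library (adjusted p 0.0615 to 0.179), and in DESeq2's Wald test (0.0898). E2F8 was called higher only without the second abl siCREB1 library (1.06, adjusted p = 0.0292) or with no filter on low counts (0.69, 0.0462).

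Partners of these factors changed in both directions. Of 11 partner genes, 5 were called lower and 3 higher under siCREB1 in LNCaP, 5 and 2 under siFOXA1 in LNCaP, 4 and 2 under siCREB1 in abl, and 4 and 1 under siFOXA1 in abl. The share of all tested genes called lower or higher in each direction was 17.8% to 29.9% in these comparisons. RBL2 (p130), the pocket protein that pairs with E2F4 in resting cells, stood at 153 and 150 CPM in LNCaP siControl, and at 248 and 243 under siFOXA1. In abl it stood at 259 and 250 in siControl and at 181 and 184 under siFOXA1. It rose by 0.70 ± 0.06 in LNCaP (adjusted p = 4.44e-07) and fell by 0.48 ± 0.06 in abl (8.93e-06), and the line difference of -1.18 passed the test (2.68e-07). LIN54, the DNA-binding subunit of MuvB, stood at 66.1 and 72.9 CPM in abl siControl against 25.3 and 23.9 in LNCaP siControl. It fell in abl to 34.9 and 40.8 under siCREB1 (-0.87 ± 0.08, adjusted p = 1.59e-06) and to 33.4 and 31.5 under siFOXA1 (-1.09 ± 0.09, 1.31e-07). LIN9, another MuvB subunit, fell in abl under siFOXA1 by 1.02 ± 0.13 (adjusted p = 1.17e-05).

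The kinases and inhibitors that act on RB1 gave 2 lower and 3 higher of 11 tested genes under siCREB1 in LNCaP, 0 and 3 under siFOXA1 in LNCaP, 3 and 4 under siCREB1 in abl, and 1 and 5 under siFOXA1 in abl. In the order of these comparisons, 19.8%, 25.5%, 23.7% and 26.5% of all tested genes were called lower and 17.8%, 24.4%, 27.5% and 29.9% higher, so nothing particular is read from the counts. CCND1 (cyclin D1), which activates CDK4 and CDK6, fell under siCREB1 from 316 and 298 CPM to 113 and 120 in LNCaP (-1.40 ± 0.09, adjusted p = 1.06e-07). In abl it fell from 216 and 174 to 132 and 135 (-0.55 ± 0.09, adjusted p = 0.000104). CDKN1A (p21), an inhibitor of these kinases, rose under siFOXA1 from 133 and 122 CPM to 425 and 403 in LNCaP (1.70 ± 0.26, adjusted p = 0.000101). In abl it rose from 225 and 203 to 646 and 347 (1.21 ± 0.25, adjusted p = 0.00101), so the 2 abl siFOXA1 libraries were far apart though both above the controls. CDK6 was scarcely read in abl, with 13 reads over both siControl libraries and 2 over both siCREB1 libraries, a ratio of 14.8% with an exact 95% counting interval of 1.62% to 65.2%.

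The genes these factors switch on were read as 2 lists of 20 each, genes of the G1/S transition that E2F activates and genes of G2/M that MYBL2 and FOXM1 activate. The G2/M list was lower almost throughout. All 20 were called lower under siCREB1 in LNCaP (median -2.96), 14 under siFOXA1 in LNCaP (-0.66), 19 under siCREB1 in abl (-1.24) and 20 under siFOXA1 in abl (-2.38), and none was called higher. In the same order, 19.8%, 25.5%, 23.7% and 26.5% of all tested genes were called lower. CENPF, a kinetochore protein, stood at 53.3 and 43 CPM in LNCaP siControl, at 3.24 and 4.85 in LNCaP siCREB1, at 127 and 117 in abl siControl, at 34.6 and 25.3 in abl siCREB1 and at 10.6 and 9.76 in abl siFOXA1. TOP2A, the topoisomerase that untangles chromosomes, fell by 3.88 ± 0.19 under siCREB1 in LNCaP (adjusted p = 1.41e-08) and by 1.95 ± 0.15 in abl (1.55e-07). NEK2, a centrosome kinase, fell by 2.99 ± 0.20 (1.73e-07) and 1.81 ± 0.14 (1.96e-07), and CCNB2, a mitotic cyclin, by 2.89 ± 0.22 (5.84e-07) and 1.72 ± 0.17 (1.66e-06). In abl under siCREB1, FOXM1 was called lower (to 64.3% of siControl) and MYBL2 stood at 80.7%, a change that did not pass the test.

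The G1/S list split by line under siCREB1. In LNCaP 15 of 20 were called lower and 1 higher (median -0.43), and in abl none was lower and 13 were higher (median 0.48). Of all tested genes, 19.8% were called lower and 17.8% higher in LNCaP, and 23.7% and 27.5% in abl. siFOXA1 gave 4 lower and 2 higher in LNCaP (median -0.02) and 11 lower and 2 higher in abl (median -0.30). The background was 25.5% lower and 24.4% higher in LNCaP, and 26.5% and 29.9% in abl. Neither LNCaP count, nor the higher count in abl, exceeded its background share. UHRF1, which helps copy DNA methylation, stood at 12.5 and 11.9 CPM in LNCaP siControl and 5.89 and 6.13 in siCREB1, but at 4.83 and 5.57 in abl siControl and 14 and 13.1 in siCREB1. It fell by 1.03 ± 0.12 in LNCaP (adjusted p = 3.18e-05) and rose by 1.42 ± 0.13 in abl (1.12e-06). TK1, a thymidine kinase, fell by 0.93 ± 0.12 in LNCaP (adjusted p = 7.18e-05) and rose by 0.65 ± 0.12 in abl (0.000448). CDC6 and DTL, which act in replication licensing and its control, changed in LNCaP by -1.85 ± 0.19 (8.78e-06) and -2.79 ± 0.26 (4.01e-06), both lower. Their abl changes of -0.28 ± 0.14 (0.111) and -0.29 ± 0.19 (0.238) did not pass. The line difference under siCREB1 was called higher in abl for 15 of 20 G1/S genes (median 0.87) and 18 of 20 G2/M genes (median 1.71). Under siFOXA1 it was called lower in abl for 5 G1/S genes, higher for 1, and lower for 19 G2/M genes (median -1.65). Of all tested genes, 10.8% had a lower and 14.8% a higher line difference under siCREB1, and 14.7% and 17.9% under siFOXA1. Without the first siControl library of each line, an alternative added after the data were seen, the siCREB1 counts for G1/S were 12 lower and 2 higher in LNCaP and 0 lower and 11 higher in abl, and the siFOXA1 line difference held for 3 G1/S genes lower.

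**Figure D4:**
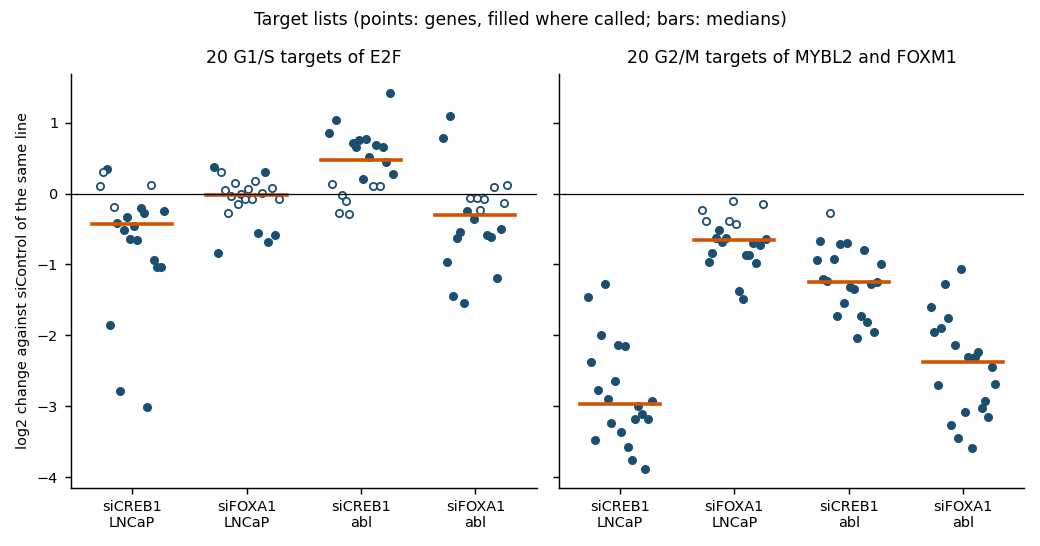
Log2 change of each of the 20 G1/S genes and 20 G2/M genes (1 point per gene, vertical axis) in the 4 knockdown comparisons, with a bar at the median. The G1/S median lies at -0.43 in LNCaP and 0.48 in abl under siCREB1, while the G2/M median lies below 0 in all 4 comparisons.

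Across the 12 libraries, the genes whose log2 levels followed each member most closely were named among 10193 well-read genes. This is a description over libraries that share lines, treatments and depth. MYBL2 was followed by CDC20 (Pearson r = 0.990), DLGAP5 and KIF20A (both 0.988), and FOXM1 by C1orf112 (0.981), FANCD2 and MKI67 (both 0.953). E2F7 was followed by DEPDC1 (0.971), C15orf23 (0.957) and TOP2A (0.956), E2F8 by URB1 (0.966), NCAPH and BUB1 (both 0.947), and MYBL1 by CDCA8 (0.951), TCF19 (0.941) and CDCA5 (0.938). E2F1 was followed by UBE2O (0.908), MCM5 (0.904) and MYBL2 (0.876), and E2F2 by FANCI (0.928), GATC (0.913) and PKMYT1 (0.905). E2F3, E2F4 and RB1 were followed by other genes, led by C2orf43 (0.962), MRPL27 (0.983) and PDS5B (0.982). Among the members, E2F7 and MYBL1 were the closest pair (r = 0.90), and E2F4 and RB1 ran most opposite (r = -0.72).

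The authors' deposited tables of changed genes listed 10 of the members for siCREB1 in LNCaP, 3 for siFOXA1 in LNCaP, 6 for siCREB1 in abl and 10 for siFOXA1 in abl. The sign was the same as here for each listed member. The authors' values are for the same samples, so the matching signs are not independent evidence. The share of all genes listed was not computed, so nothing is read from the counts. MYBL2 stood in the authors' deposited table at -3.34 for siCREB1 in LNCaP and FOXM1 at -2.24 for siFOXA1 in abl. E2F3 under siFOXA1 in LNCaP was called here but not listed in the authors' deposited table.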

How the data were processed

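RNA was measured by sequencing in 6 samples with 2 count columns each, taken here as 2 libraries. The authors deposited raw counts per gene. The submitters' processing notes name hg19, HTSeq 0.5.3p9, TopHat2 2.0.8, Bowtie2 2.1.0 and CASAVA 1.8, without saying here which step each served. The annotation and strand setting of the counting are not given in the sources used here, so overlapping genes are uncertain. SIC in a column name was taken to mean siControl, and 8 repeats of these columns were identical. Lines that name no gene (no feature, 54.85% to 58.25% of each library, and ambiguous, 0.774% to 0.924%) were left out. The authors' deposited tables also give log2 fold changes and p-values, and the same notes name edgeR 3.0.6.

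All 12 libraries entered 1 fit in edgeR 4.0.16 (R 4.3.3) with filterByExpr, TMM scaling and a two-sided quasi-likelihood test (6 residual degrees of freedom), called at a Benjamini-Hochberg adjusted p below 0.05 over 15550 genes. SE is the size of the change divided by the root of its F value. CPM levels use TMM scaling. The fit was tested on simulated data for siCREB1 in LNCaP only, with the same spread for every gene. It gives no assurance on members with few reads. The 10 genes and the gene lists were chosen with earlier results of these data known. Named genes are the 10 members, the targeted genes, partners and kinases, the 4 genes of each target list with the largest median absolute change over the 4 knockdowns, and the 3 genes most like each member. Alternatives were the Wald test of DESeq2 1.42.0, no filter, only 1 line, a replicate block, and leaving out each library. Another left out the first siControl library of both lines. The alternative named DESeq2 size factors used edgeR's scaling of that type (RLE) with the same quasi-likelihood test. Peak lists (hg19) were not used here, since no annotation of that build was at hand.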

Additional observations from a re-analysis of the deposited data

Results flagged for a closer look

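Between the 2 lines, 12 tested differences in a knockdown effect passed an adjusted p below 0.05 (edgeR's quasi-likelihood test on 2 libraries a group). Each is the abl log2 change minus the LNCaP log2 change. For siCREB1 they were E2F1 (1.67), E2F2 (1.48), E2F3 (0.70), E2F8 (1.88), MYBL1 (1.28), MYBL2 (3.01) and FOXM1 (1.02). For siFOXA1 they were E2F3 (0.61), E2F7 (-2.71), MYBL1 (-2.22), MYBL2 (-0.99) and FOXM1 (-1.08). MYBL1, MYBL2 and FOXM1 thus differed in opposite directions under the 2 knockdowns, and E2F3 in the same one. All 10 members were tested for each knockdown. Among all tested genes, 10.8% had a lower and 14.8% a higher line difference under siCREB1, and 14.7% and 17.9% under siFOXA1. The E2F8 and MYBL1 calls for siCREB1 did not hold in every fit that left out 1 library. Their differences ran from 1.27 to 2.90 and from 0.95 to 1.69. Without the first siControl library of both lines, both calls were lost, at 1.33 and 1.24. The causes of the differences between the lines were not tested.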

How the results depend on the processing

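Over all alternatives, 1474 values of single members kept their direction and side of the threshold, 98 kept direction but lost the call, 6 gained it and 12 changed sign. Counts over all genes stayed within 1.5 times. Leaving out 1 library at a time, the members called were 0 to 1 higher for siCREB1 in LNCaP, 1 to 2 higher for siFOXA1 in LNCaP, 2 to 4 lower and 1 to 2 higher for siCREB1 in abl, and 4 to 8 lower for siFOXA1 in abl. They were 2 to 4 higher in abl against LNCaP under siControl, and 6 to 10 lower for siCREB1 against siFOXA1 in LNCaP. Without the first siControl library of both lines they were 0 higher (siCREB1 in LNCaP), 2 lower and 1 higher (siCREB1 in abl) and 2 higher (abl against LNCaP). That fit also ended the E2F8 and MYBL1 calls of the siCREB1 line difference, and the E2F1 and RB1 calls of siFOXA1 in abl. DESeq2 size factors and the DESeq2 Wald test each left 1 higher for siCREB1 in abl, where E2F1 was lost. The Wald test also ended the calls of MYBL1 (siCREB1 in abl, abl against LNCaP, and the siCREB1 line difference), E2F2 (siFOXA1 in abl), E2F7 (siCREB1 against siFOXA1 in abl), and E2F2, E2F4 and RB1 (siCREB1 against siFOXA1 in LNCaP). The sign changes touched values that were not called. Leaving out 1 library, they ran from -0.41 to 0.07 for MYBL1 under siFOXA1 in LNCaP (0.07 also without both first siControl libraries), from -0.80 to 0.06 for E2F8 under siCREB1 in abl, and from -0.40 to 0.01 for E2F1 and -0.09 to 0.01 for FOXM1 in abl against LNCaP. They ran from -0.06 to 0.01 for E2F4 in siCREB1 against siFOXA1 in abl, from -0.03 to 0.25 for RB1 in the siCREB1 line difference, and from -0.29 to 0.06 for E2F2 and -0.06 to 0.17 for E2F4 in the siFOXA1 line difference. The causes were not tested.

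The count columns number the libraries 1 and 2, but nothing in the labels says that a number marks shared cells or a shared day. Library differences correlated at -0.04 to 0.05 between a knockdown and its control and at 0.23 between the siControl groups of the lines, so the libraries were not treated as paired. With the library number as a replicate block, siCREB1 in abl kept 1 member higher (E2F4), MYBL1 in abl against LNCaP (0.60, adjusted p = 0.0509) and E2F2 in siCREB1 against siFOXA1 in LNCaP (-0.58, 0.0528) were lost, and the E2F7 line difference under siCREB1 passed (1.08, 0.0389). Depth limits E2F7, E2F8 and MYBL1 most, with as few as 10, 6 and 10 reads in a library. Peaks near these genes were not analysed here, so the alternatives for them were not run.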

Other observations

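The 2 abl siCREB1 libraries stood apart in the genes of G2 and mitosis, and also in G1/S genes. The summed G1/S list was 922 CPM in the first and 839 in the second. Its named genes were also higher in the first, CDC6 (22.1 against 17), DTL (6.76 against 5.55), TK1 (64 against 54.3) and UHRF1 (14 against 13.1). The first held more than the second for the summed G2/M list (455 against 334 CPM), CENPF (34.6 against 25.3), MYBL2 (22.6 against 16.3), FOXM1 (36.1 against 30.2) and E2F8 (4.78 against 2.63), and also for the kinase inhibitor gene CDKN1A (330 against 180). The abl siFOXA1 libraries were close in the G2/M list (179 and 195 CPM) and apart in CDKN1A (646 and 347).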
